A study of Mus musculus with 26 samples.

Results

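The genes described here are 35 Polycomb group and associated chromatin genes of the mouse, chosen by symbol for their part in the Polycomb complexes and followed across 13 cell lines. A probe was named for 32 of them, and 29 passed the detection filter, out of 9840 genes tested and 16590 with a probe. No probe was named for Rbbp4, Rybp and Asxl1. Phf1, Cbx6 and Phc3 had probes that were detected on no array, so they have no level here. Where a gene had several probes above the filter, the probe with the highest mean level stood for it.

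Polycomb proteins keep developmental genes silent through a pair of complexes. Polycomb repressive complex 2 (PRC2) methylates lysine residues of histone H3, with EZH1 or EZH2 as the enzyme and SUZ12 and EED as its scaffold. Polycomb repressive complex 1 (PRC1) places ubiquitin on histone H2A through RING1 or RNF2 (RING1B), and its other subunits come in families of which a complex holds a single member: a PCGF protein, and either a CBX protein, which reads the PRC2 mark, or RYBP or YAF2. Exchange of these subunits is a known feature of the passage from pluripotent to differentiated cells. In germline stem cells the complexes are known for keeping somatic genes silent.

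The study asked whether different reprogramming routes lead to distinguishable pluripotent cells, and measured RNA on Illumina bead arrays. Every line carried the strain label OG2, a mouse with an Oct4-GFP reporter transgene. Germline stem cells (GSC, spermatogonial stem cells kept in culture) were 1 neonatal line (day 10) and 1 adult line (day 40). Each of them gave rise to 2 clones of induced cells, called iPSC[GSC], and to 2 clones called gPSC, which are pluripotent cells derived from the germline. An embryonic stem cell line (ESC), an iPSC line made from OG2 embryonic fibroblasts and labelled Tet-4F (iPSC[MEF]) and an embryonic fibroblast line (MEF) completed the set. The 10 pluripotent lines form 1 class below, set against 2 GSC lines and 1 MEF line, and each line was measured on 2 arrays. A clone is a single derivation, each origin goes back to a single GSC line, and the labels do not say that the arrays of a line came from separate cultures. In the main limma model each of 9 cell types has its own mean, and the 2 GSC lines are separate types. Its p-values then measure only the spread between clones of a type and between arrays. The gap between the GSC lines and the differences among types of pluripotent line do not enter them. A fit to line means, given below, includes both.

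The arrays detected between 9984 and 12081 probes each, and precision is limited by how few lines there are. A level here means a normalised log2 signal averaged over the arrays of a line, and because probes differ in brightness a level is compared only between lines for the same gene. The labels were checked against marker genes. All 10 tested pluripotency markers were lower in GSC and in MEF than in pluripotent lines, and 0 of 10 were detected in MEF. Of 12 listed spermatogonial markers 11 were tested, and all 11 were detected in both GSC lines. Gfra1 among them passed the detection filter through the GSC arrays alone. Ret, detected on 0 pluripotent arrays and 1 MEF array, would not have passed without GSC. Sall4 and Etv5 were lower in GSC than in pluripotent lines. Of 9 listed markers of testis somatic cells 4 were tested, and in GSC Wt1 was higher and Acta2 lower than in pluripotent lines. Sox9 also passed as higher, but was detected on 1 of 4 GSC arrays and 0 of 20 pluripotent arrays. No fold above 1 is supported for Sox9. Wt1, a Sertoli cell factor, stood at 8.78 and 9.20 in GSC against a pluripotent mean of 5.27 ± 0.64 (SD, n = 10), a difference of 3.72 ± 0.31 (limma adjusted p = 5.35e-10), while Cyp11a1, a Leydig cell enzyme gene, was detected on 0 of 4 GSC arrays. The part of somatic RNA in the GSC differences below was not tested. Of 12 listed fibroblast markers 9 were tested, and all 9 were detected in MEF, with a summed linear signal of 20370, against 986 to 1450 in GSC. In MEF 8 of them were called higher than in pluripotent lines, while Dcn differed by −1.21 and was not called. The pluripotent line gPSC[GSCadult]#2 stood apart with a fibroblast-marker sum of 9398, where the lowest pluripotent line had 499.8. The lines gPSC[GSCneonatal]#2 and iPSC[MEF] were the most alike pluripotent pair: their single arrays correlated at r = 0.9945 to 0.9957 over all genes, within the range of 0.9942 to 0.9969 between the arrays of a line. Whether they have a shared source cannot be told from the files, so they may not be separate lines, and counts without each are given below. Their Polycomb levels differed by at most 0.41. In bulk RNA, fewer cells of a type and less RNA per cell cannot be told apart.

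Between GSC and pluripotent lines the Polycomb members differed in both directions. GSC had more Cbx8, Cbx2, Pcgf5, Bmi1 and Phc2 RNA, and less Ezh2, Cbx7, Kdm6a, Phc1 and Mtf2 RNA. Of the 29 measured members, 10 were higher and 10 lower in GSC at a limma adjusted p under 0.05, which is 69% of them. Over all genes tested 51.3% passed, with 27.7% higher and 23.6% lower, so much of the transcriptome differed between these cells. The median difference of the members was −0.16 on the log2 scale, against 0.00 for all genes. Both GSC lines lay outside the range of the 10 pluripotent lines for 18 members (10 above, 8 below), where 52.5% of all genes did so (28.3% above, 24.2% below). The 10 higher and the 10 above both include Kdm2b, which passed the detection filter through the GSC arrays alone.

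In MEF 13 of the 29 members were lower than in pluripotent lines and 4 higher, with a median difference of −0.61 against −0.10 for all genes, or −0.20 where the 6 members at background on a side are set at the bound of their fold. Mtf2 and Phc1 were lower by the widest margins among members detected on both sides, Cbx7 was at background in MEF and at least 11.1-fold lower, and Phc2 and Bmi1 were the most increased. The members that passed are 58.6% of those tested, against 43.5% of all genes (20.5% higher, 23% lower). With arrays scaled to a common median and not quantile-normalised, the split was 10 higher and 9 lower, while the median of all genes moved by 0.58, so the excess of lower members in MEF depends on the scaling. That scaling moved 13 of the 17 called differences by over 1.5 times, for example to −2.44 for Phc1, −2.92 for Mtf2, −1.57 for Pcgf6, −1.13 for Kdm6a and 3.36 for Phc2. MEF lay outside the pluripotent range for 21 members (5 above, 16 below), against 65.2% of all genes (29.3% above, 35.9% below), and with a single MEF line this comparison has no spread of its own.

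Set directly against MEF, GSC were higher for 13 members and lower for Pcgf3 alone. The median difference was 0.64, or 0.23 with members at background set at their bound, against 0.09 for all genes. These 14 members are 48.3% of those tested, near the 46% of all genes that passed (25.4% higher, 20.6% lower). With arrays scaled to a common median the split was 12 higher and 7 lower, and the median of all genes moved by −0.43. The 3 comparisons share lines, so their values are given side by side and are not independent.

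A fit to line means, with the 13 lines in 3 classes, called the same 20 members between GSC and pluripotent lines. Between MEF and pluripotent lines it called 19, losing Pcgf5 and gaining Jarid2, Cbx2 and Scmh1, and between GSC and MEF it called 16, gaining Eed and Kdm2b. Without gPSC[GSCadult]#2, the line with the high fibroblast-marker sum, 20 members were called in GSC and 19 in MEF. Without gPSC[GSCneonatal]#2 the counts were 20 and 18, and without iPSC[MEF] 18 and 16.

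**Figure D1:**
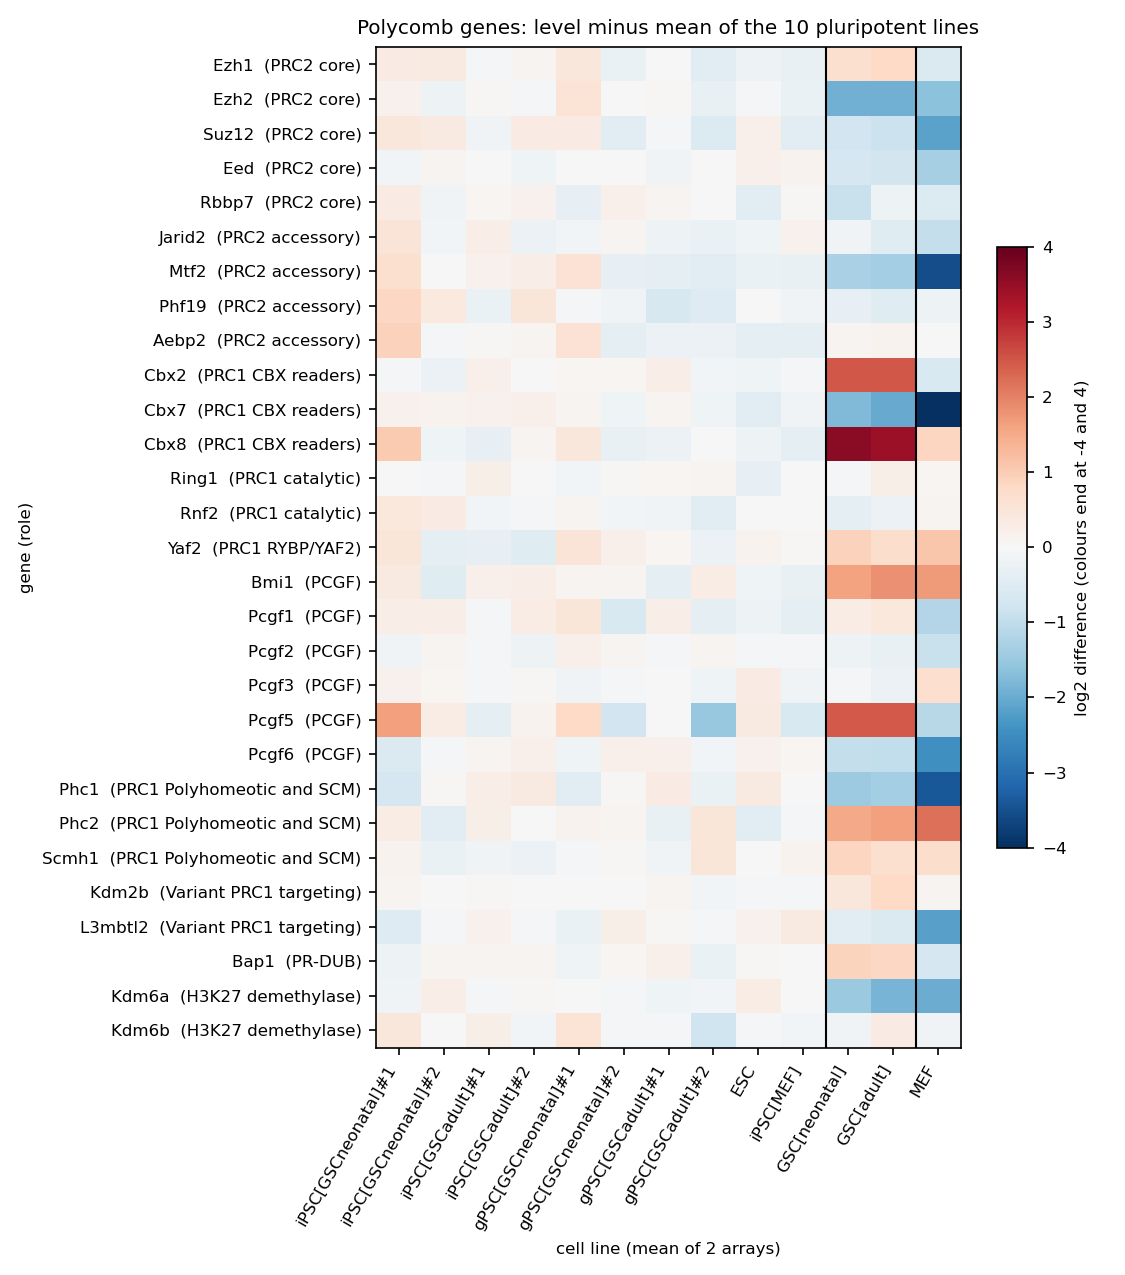
Level of each of the 29 measured members in each of the 13 lines, as the log2 difference from the mean of the 10 pluripotent lines (colour, ending at -4 and 4), with genes in rows by role and lines in columns. The pluripotent columns are pale apart from Pcgf5, the GSC columns are red for Cbx8 (3.52 on average), Cbx2 and Pcgf5, and the MEF column is darkest blue for Cbx7, which neither MEF array detected. Members that change sign in MEF with arrays scaled to a common median include Bap1, Kdm6b and Rbbp7.

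The directions in GSC and MEF can be set side by side for each member, with the pluripotent lines as their shared control. Bmi1, Phc2 and Yaf2 were higher in both (3 members, against 6.43% of all genes). Cbx7, Eed, Ezh2, Kdm6a, L3mbtl2, Mtf2, Pcgf6, Phc1 and Suz12 were lower in both (9 members, against 10.1% of all genes). Pcgf5 and Bap1 were higher in GSC and lower in MEF (4.78% of all genes), and 0 members went the opposite way (3.96% of all genes). Cbx2, Cbx8, Ezh1, Kdm2b and Scmh1 were higher in GSC and not called in MEF. Aebp2, Jarid2, Kdm6b, Phf19, Ring1 and Rnf2 were called in neither comparison.

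**Figure D2:**
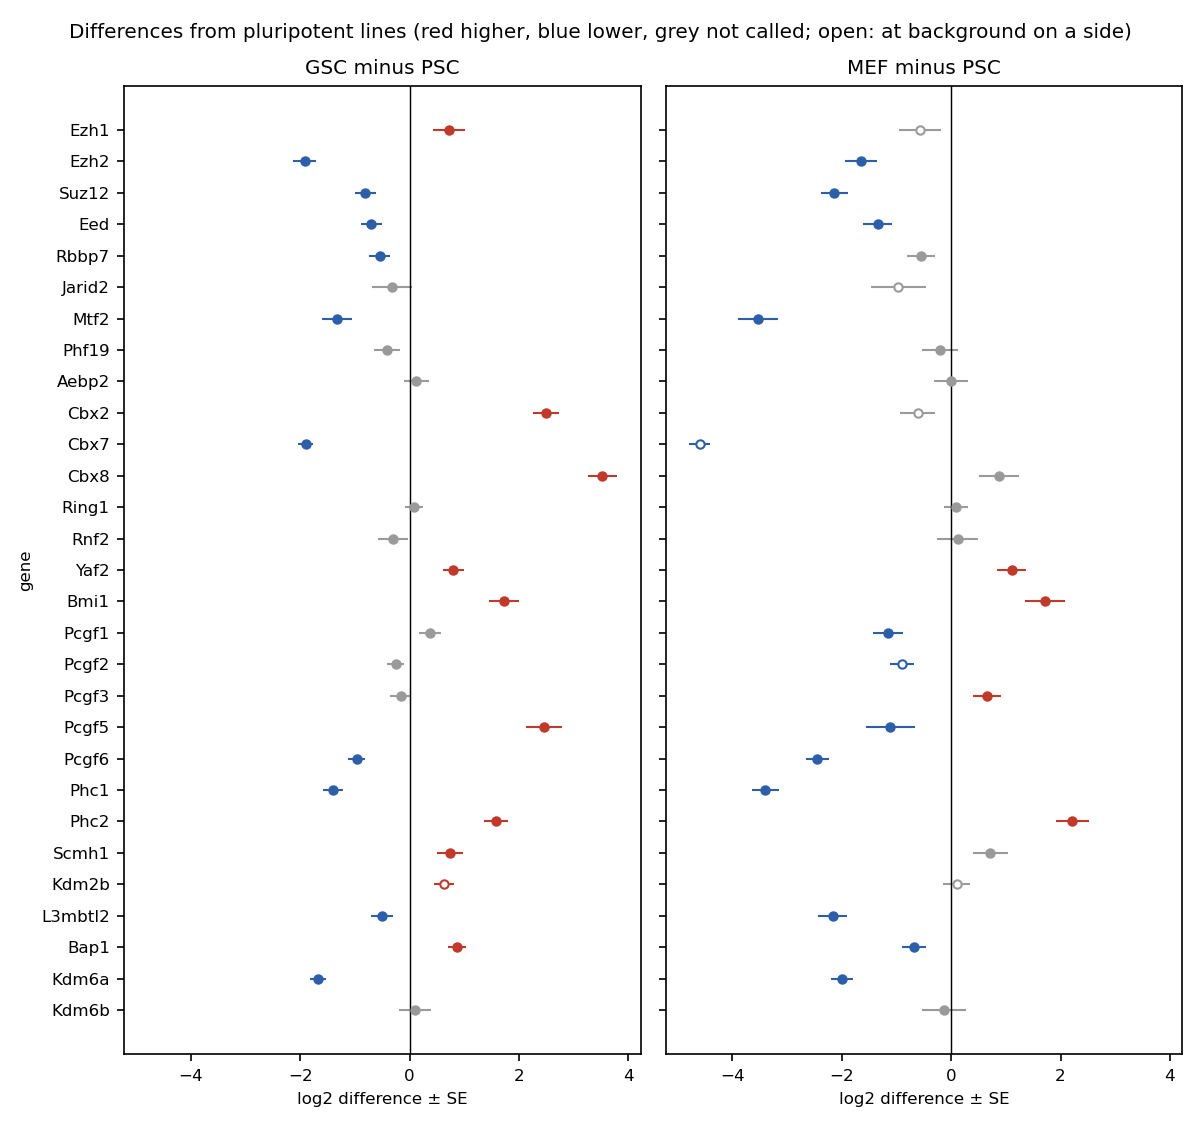
Difference from the 10 pluripotent lines (PSC, log2, horizontal axis) for each of the 29 members, for 2 GSC lines on the left and 1 MEF line on the right, with bars of 1 SE from the fit. Red points passed as higher, blue as lower and grey did not pass, and open points have a side at background, so that their place is not an exact difference. Cbx8, Cbx2 and Pcgf5 lie farthest right in GSC, and among filled points Mtf2 and Phc1 lie farthest left in MEF.

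Among the PRC2 core subunits, Ezh2 showed the largest GSC difference. Ezh2 encodes the methyltransferase of dividing cells, and its promoter is shown because Ezh2 separated the pluripotent lines from all others. RefSeq windows on GRCm38.p6 (300 bases around the transcript start) were available for 30 of the 35 members, 42 windows in all, and Cbx2, Rybp, Yaf2, Pcgf1 and Kdm6b had none. They held a median of 23.5 CpG, against 7 over all 32851 windows of the table. The Ezh2 window lies at chr6:47594981-47595280 on the minus strand and holds 31 CpG. Capitals mark matches, on either strand and without overlap, to a CCAAT box (CCAAT, in 37.4% of all windows) and to an E2F site (TTTGGCGC, in 0.514%). Of the member windows 17 held a CCAAT box, and the E2F site occurred in this 1 window.
Ezh2: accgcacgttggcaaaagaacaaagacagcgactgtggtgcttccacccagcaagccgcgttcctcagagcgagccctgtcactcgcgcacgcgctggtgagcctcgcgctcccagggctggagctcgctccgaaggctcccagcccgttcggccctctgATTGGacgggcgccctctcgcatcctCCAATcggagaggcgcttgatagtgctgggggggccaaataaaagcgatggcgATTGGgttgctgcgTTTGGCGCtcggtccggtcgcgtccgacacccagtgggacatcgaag

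Ezh2 ranged from 9.81 to 10.65 in the pluripotent lines (median 10.07), and stood at 8.17 in the neonatal GSC line, 8.18 in the adult GSC line and 8.44 in MEF. The pluripotent lines were all above the others, with no overlap. The log2 difference from pluripotent lines was −1.92 ± 0.21 (SE) in GSC (limma adjusted p = 7.67e-08) and −1.65 ± 0.29 in MEF (limma adjusted p = 6.13e-05). Another detected Ezh2 probe moved the same way, by −1.22 and −0.95. Its paralogue Ezh1, the methyltransferase of resting cells, went the other way in GSC. Ezh1 ranged from 4.72 to 5.58 in pluripotent lines (median 5.11), and was 5.79 and 5.92 in the neonatal and adult GSC lines and 4.56, at background, in MEF. Both GSC lines lay above every pluripotent line, by 0.72 ± 0.28 on average (limma adjusted p = 0.0377). That Ezh1 call was lost in 8 of 25 alternatives: without GSC[neonatal] (0.79, adjusted p = 0.103), GSC[adult] (0.65, 0.223), ESC (0.70, 0.0518), iPSC[MEF] (0.69, 0.0517) or iPSC[GSCadult]#1 (0.71, 0.0589), against the 8 germline-derived clones alone, without background correction and in the deposited matrix. Against MEF, Ezh1 was at least 1.43-fold higher in GSC (limma adjusted p = 0.021), a call lost without GSC[adult] (1.23, adjusted p = 0.0792).

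The scaffold subunits were lower in both starting cell types. Suz12, which holds the complex together, ranged from 11.32 to 12.34 in pluripotent lines (median 11.93), and was 11.13 and 11.02 in GSC and 9.75 in MEF. The classes did not overlap, and MEF stood lowest. The differences were −0.81 ± 0.19 in GSC (limma adjusted p = 0.000868) and −2.13 ± 0.25 in MEF (limma adjusted p = 3.68e-07). Eed, the subunit that binds the methyl mark, was between 9.90 and 10.29 in pluripotent lines (median 10.06), 9.42 and 9.33 in GSC and 8.73 in MEF. It was again separate in each class, lower by −0.70 ± 0.19 in GSC and −1.34 ± 0.26 in MEF (limma adjusted p = 0.00372 and 0.000184). With arrays scaled to a common median the MEF differences of Ezh2 (−0.65, adjusted p = 0.0815) and Eed (−0.30, adjusted p = 0.25) did not pass, while that of Suz12 did. Under that scaling the Suz12 difference between GSC and MEF fell from 1.32 to 0.11 (limma adjusted p = 0.78). The Eed difference was then smaller in size in MEF than in GSC, where every alternative gave −0.84 to −0.57. The place of MEF below GSC for Suz12 and Eed therefore depends on the scaling. Rbbp7, a histone-binding subunit shared with other complexes, was 9.07 in the neonatal and 9.77 in the adult GSC line, and the adult line lay within the pluripotent range of 9.54 to 10.29 (median 10.01). Its difference of −0.54 ± 0.19 (limma adjusted p = 0.0212) was −0.19 without the neonatal line (adjusted p = 0.619), and MEF at 9.41 did not pass (−0.55 ± 0.26, limma adjusted p = 0.0942), nor did it under most alternatives. It passed without gPSC[GSCneonatal]#1 (−0.59, limma adjusted p = 0.0449) and with undetected genes kept in the fit (−0.55, limma adjusted p = 0.0178), and was 0.54 with arrays scaled to a common median (limma adjusted p = 0.118). Other detected Rbbp7 probes gave −0.82, −0.62 and 0.74 in MEF, so the direction there is uncertain.

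Of the 4 measured accessory subunits only Mtf2 was called. MTF2 is a Polycomb-like protein that brings PRC2 to CpG-rich DNA. Mtf2 ranged from 9.11 to 10.17 in pluripotent lines (median 9.40), and was 8.22 and 8.17 in GSC and 5.99 in MEF. GSC stood below every pluripotent line, and MEF far below both. The differences were −1.33 ± 0.27 in GSC (limma adjusted p = 0.000242) and −3.54 ± 0.37 in MEF (limma adjusted p = 4.95e-08), and GSC exceeded MEF by 2.20 ± 0.43 (limma adjusted p = 0.000178).

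Phf19, another Polycomb-like gene, differed by −0.41 ± 0.24 in GSC and −0.20 ± 0.33 in MEF, and neither passed (limma adjusted p = 0.165 and 0.665). Jarid2, which encodes a DNA-binding partner of PRC2, was dim, from 4.99 to 5.78 in pluripotent lines, 5.10 and 4.77 in GSC and 4.29 in MEF. Neither MEF array detected it, and no fold above 1 is supported there. MEF against pluripotent lines did not pass (limma adjusted p = 0.124), and passed in the fit to line means (adjusted p = 0.00997). Aebp2, a cofactor that stimulates PRC2, differed by 0.12 ± 0.23 in GSC and 0.00 ± 0.31 in MEF (limma adjusted p = 0.698 and 0.993). Another detected Aebp2 probe disagreed, at −2.0 and −2.04, so the level of Aebp2 is uncertain.

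Among the CBX readers of PRC1, Cbx8 showed the largest GSC difference of all members, and Cbx7 was at background in MEF. CBX7 is known as the main reader in embryonic stem cells, and CBX2 and CBX8 as readers of more differentiated cells. The promoter windows of Cbx7 and Cbx8 are shown because these genes differed in opposite directions in GSC. Cbx7 lies at chr15:79932597-79932896 (minus strand, 33 CpG) and Cbx8 at chr11:119040864-119041163 (minus strand, 24 CpG). Capitals mark CCAAT boxes in both and, in Cbx8, a cyclic AMP response element (CRE, TGACGTCA, in 1.79% of all windows) and an E-box (CACGTG, in 7.15%). Among member windows the CRE occurred in this 1 and the E-box in 9.
Cbx7: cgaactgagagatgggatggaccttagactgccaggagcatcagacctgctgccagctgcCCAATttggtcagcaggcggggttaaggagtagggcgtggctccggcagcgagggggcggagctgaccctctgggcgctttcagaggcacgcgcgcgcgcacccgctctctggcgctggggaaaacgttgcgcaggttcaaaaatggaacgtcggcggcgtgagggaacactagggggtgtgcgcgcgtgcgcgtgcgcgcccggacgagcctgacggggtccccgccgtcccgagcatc
Cbx8: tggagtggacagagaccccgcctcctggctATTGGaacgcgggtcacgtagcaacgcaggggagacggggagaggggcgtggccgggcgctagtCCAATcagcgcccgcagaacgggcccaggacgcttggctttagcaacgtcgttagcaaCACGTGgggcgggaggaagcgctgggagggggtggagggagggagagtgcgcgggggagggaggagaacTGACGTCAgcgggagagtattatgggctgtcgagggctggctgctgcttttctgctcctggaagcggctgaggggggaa

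Cbx7 lay between 8.37 (ESC) and 9.01 in the pluripotent lines, with a median of 8.91. It was 7.03 in the neonatal and 6.79 in the adult GSC line, and 4.22 in MEF, where neither array detected it. The 3 classes were separate by wide gaps. Cbx7 was lower by −1.90 ± 0.14 in GSC (limma adjusted p = 9.25e-11) and at least 11.1-fold lower in MEF (limma adjusted p = 4.25e-15). GSC exceeded MEF at least 2.98-fold (limma adjusted p = 1.52e-09).

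Cbx8 was at 4.27 to 5.68 in pluripotent lines (median 4.42) and was detected on only 3 of their 20 arrays. Those 3 arrays belonged to iPSC[GSCneonatal]#1 and gPSC[GSCneonatal]#1. In GSC it stood at 8.25 and 8.05, and in MEF at 5.50. GSC were above every other line, while MEF lay within the pluripotent range, below iPSC[GSCneonatal]#1 at 5.68. The GSC difference was 3.52 ± 0.27 (limma adjusted p = 1.30e-10). Its size depends on how background is treated, since Cbx8 was near background in most pluripotent lines: it was 1.83 without background correction and 5.34 in the deposited matrix, and passed in both (limma adjusted p = 3.15e-12 and 2.66e-06). The MEF difference of 0.87 ± 0.36 missed the threshold (limma adjusted p = 0.0557). It passed without iPSC[GSCneonatal]#1 (0.99, adjusted p = 0.0137), iPSC[GSCneonatal]#2 (0.85, 0.0245), gPSC[GSCneonatal]#1 (0.92, 0.0171), gPSC[GSCneonatal]#2 (0.84, 0.0475) or gPSC[GSCadult]#2 (0.87, 0.0469).

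Cbx2 was steady among pluripotent lines, from 5.23 to 5.72 (median 5.43). It was 7.94 and 7.95 in the GSC lines, and 4.84 in MEF, at background. Both GSC lines thus stood above all others. The difference from pluripotent lines was 2.49 ± 0.24 (limma adjusted p = 7.10e-09), or 1.40 without background correction and 3.18 in the deposited matrix, and GSC were at least 6.11-fold above MEF (limma adjusted p = 5.51e-07). The MEF difference from pluripotent lines did not pass (limma adjusted p = 0.136), and passed in the fit to line means (adjusted p = 0.0128).

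**Figure D3:**
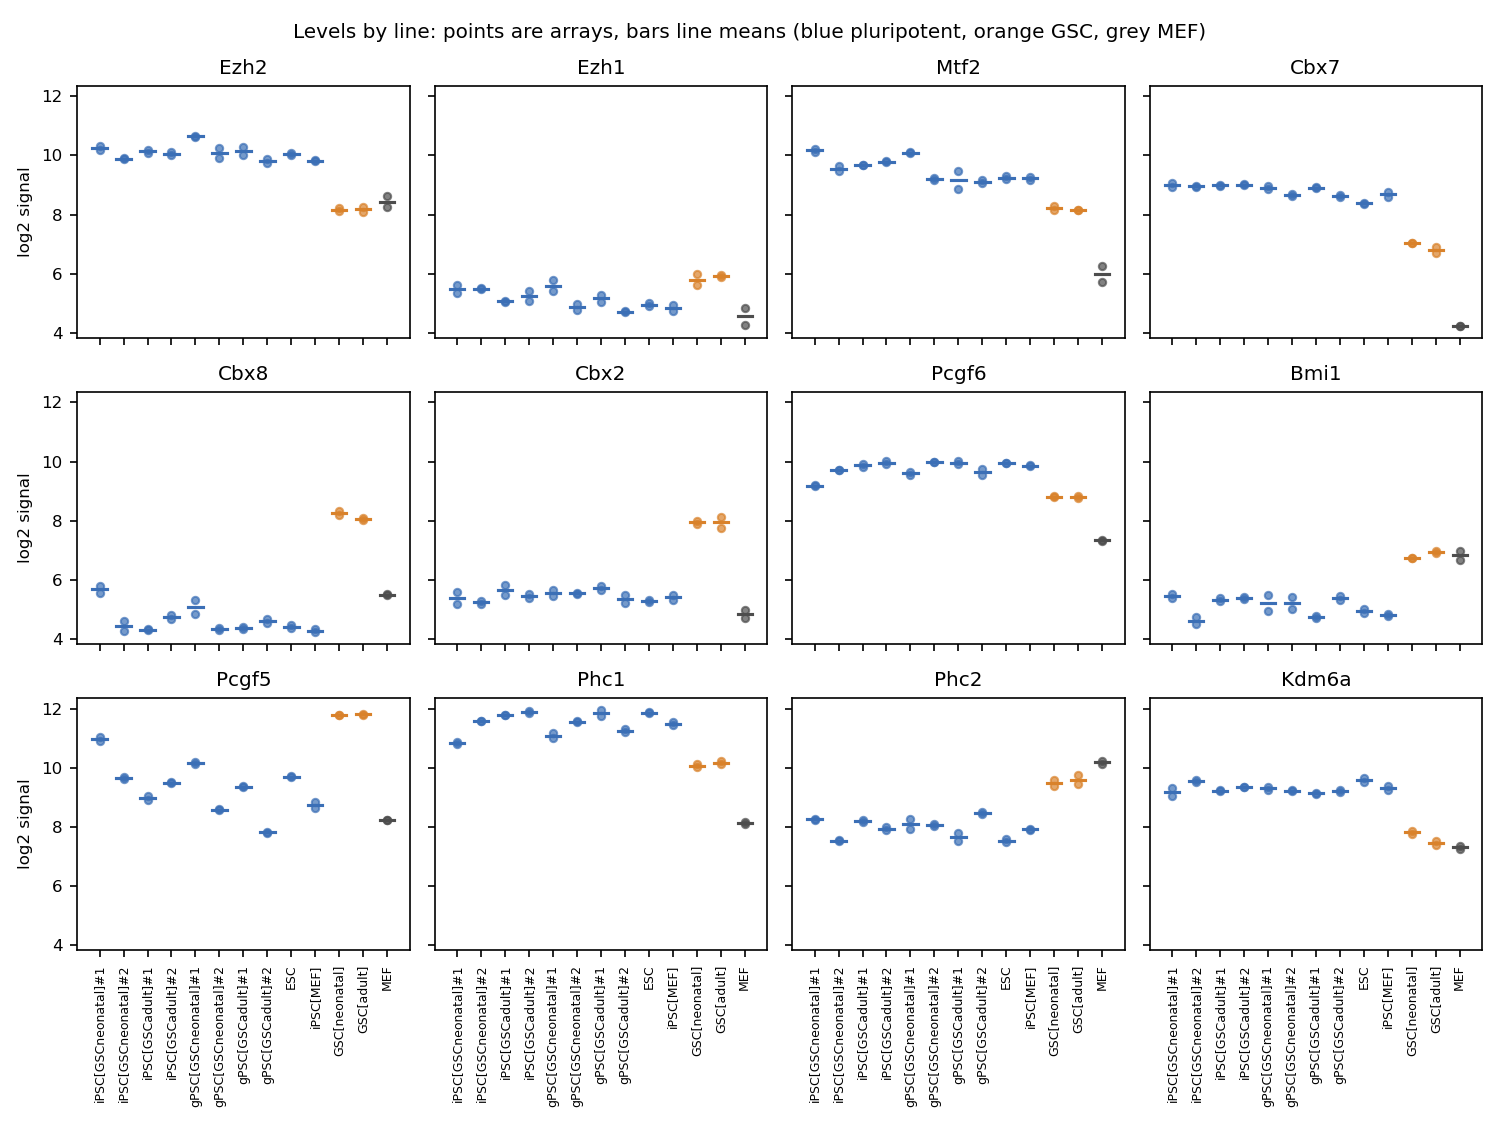
Normalised log2 signal (vertical axis) of 12 members in the 13 lines (horizontal axis), with points for the 2 arrays of a line and bars for their mean, in blue for pluripotent lines, orange for GSC and grey for MEF. Cbx7 and Phc1 step down from pluripotent lines to GSC and again to MEF, Cbx8 and Cbx2 are high in GSC alone, and Pcgf5 is spread widely among pluripotent lines, from 7.81 to 10.97.

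The RING-finger ubiquitin ligases themselves showed no called difference. Ring1 was 6.42 to 6.96 in pluripotent lines (median 6.74), 6.66 and 6.96 in GSC and 6.82 in MEF. Rnf2, which encodes the main ligase RING1B of embryonic stem cells, was 6.03 to 6.87 (median 6.41), 6.07 and 6.22, and 6.58. All 3 classes overlapped for both genes. The GSC differences were 0.08 ± 0.16 and −0.31 ± 0.28 (limma adjusted p = 0.734 and 0.375). In MEF they were 0.09 ± 0.22 and 0.12 ± 0.37 (limma adjusted p = 0.779 and 0.824), and with arrays scaled to a common median both passed as higher there (0.81 and 0.79). Without replicate 2 Rnf2 passed in GSC (−0.52, adjusted p = 0.0325).

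Yaf2 encodes a subunit that takes the place of a CBX protein in variant PRC1. It ranged from 4.61 to 5.60 in pluripotent lines (median 5.15), and was 5.99 and 5.77 in GSC and 6.19 in MEF. The pluripotent lines were all below the others. The differences were 0.80 ± 0.20 in GSC and 1.11 ± 0.27 in MEF (limma adjusted p = 0.00155 and 0.0016), and the MEF value was 0.43 without background correction and 1.80 in the deposited matrix. The GSC difference was 0.69 without GSC[neonatal] (adjusted p = 0.0501).

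The 6 PCGF genes, whose products define the kind of PRC1, showed several patterns. BMI1 and PCGF2 (MEL18) belong to canonical PRC1, which also holds a CBX reader. Bmi1 ranged from 4.61 to 5.46 in pluripotent lines (median 5.21), and was 6.73 and 6.92 in GSC and 6.82 in MEF. GSC and MEF were above all pluripotent lines, by 1.72 ± 0.27 and 1.72 ± 0.36 (limma adjusted p = 9.73e-06 and 0.000452). Without background correction these were 0.77 and 0.76, and in the deposited matrix 2.56 and 2.55, and all 4 passed. The difference between GSC and MEF was 0.00 ± 0.42 (limma adjusted p = 0.996). Pcgf2 ranged from 5.52 to 5.94 in pluripotent lines (median 5.69), with GSC at 5.53 and 5.42 and MEF at 4.83. GSC overlapped the pluripotent range (−0.26 ± 0.16, limma adjusted p = 0.196), and MEF, at background, was at least 1.31-fold lower (limma adjusted p = 0.00166). GSC were at least 1.10-fold above MEF (limma adjusted p = 0.0419), and this call was lost in 8 of 21 alternatives, among them without GSC[neonatal] (0.59, adjusted p = 0.122), GSC[adult] (0.69, 0.0747), iPSC[GSCadult]#1 (0.64, 0.0603) or iPSC[GSCadult]#2 (0.64, 0.0606) and with the replicate number as a block (0.64, 0.0502).

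PCGF3 and PCGF5 stand in for each other in variant complexes. Pcgf5 was 11.78 and 11.80 in GSC, above every pluripotent line, and 8.23 in MEF. In pluripotent lines it was 7.81 in gPSC[GSCadult]#2, 8.58 in gPSC[GSCneonatal]#2, 8.73 in iPSC[MEF], 8.96 in iPSC[GSCadult]#1, 9.35 in gPSC[GSCadult]#1, 9.49 in iPSC[GSCadult]#2, 9.65 in iPSC[GSCneonatal]#2, 9.69 in ESC, 10.15 in gPSC[GSCneonatal]#1 and 10.97 in iPSC[GSCneonatal]#1. The range of 3.16 was the widest of any member, and MEF lay inside it. The GSC difference was 2.45 ± 0.33 (limma adjusted p = 1.12e-06). The MEF difference of −1.11 ± 0.44 (limma adjusted p = 0.0463) was lost in 13 of 22 alternatives, among them the fit to line means (adjusted p = 0.278). It was also lost without iPSC[GSCneonatal]#1 (−0.93, adjusted p = 0.0743), iPSC[GSCadult]#2 (−1.09, 0.0634), ESC (−1.07, 0.0633), GSC[neonatal] (−1.11, 0.0533) or GSC[adult] (−1.11, 0.0544). GSC exceeded MEF by 3.56 ± 0.52 (limma adjusted p = 5.40e-06).

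Pcgf3 was 6.72 to 7.22 in pluripotent lines (median 6.88), 6.82 and 6.65 in GSC and 7.56 in MEF, which stood above all other lines. It was not called in GSC (−0.16 ± 0.19, limma adjusted p = 0.504) and was higher in MEF by 0.66 ± 0.26 (limma adjusted p = 0.0396). The MEF call was lost without iPSC[GSCadult]#1 (0.66, adjusted p = 0.0616), iPSC[GSCadult]#2 (0.67, 0.0588) or iPSC[MEF] (0.64, 0.051). GSC were lower than MEF by −0.83 ± 0.30 (limma adjusted p = 0.0265), a call lost without GSC[adult] (−0.75, adjusted p = 0.0958).

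PCGF6 and PCGF1 mark further variant complexes, and the PCGF6 complex is known for silencing germline genes in embryonic stem cells. Pcgf6 was 9.18 to 9.97 in pluripotent lines (median 9.87), 8.81 and 8.80 in GSC and 7.33 in MEF. The classes did not overlap and MEF was lowest. It was lower by −0.97 ± 0.15 in GSC and −2.44 ± 0.21 in MEF (limma adjusted p = 1.16e-05 and 1.91e-09). L3mbtl2, which encodes a partner of PCGF6, was 7.48 to 8.35 (median 8.0), 7.55 and 7.42, and 5.82. MEF was far below, and the neonatal GSC line lay within the pluripotent range. The MEF difference was −2.17 ± 0.27 (limma adjusted p = 7.78e-07). The GSC difference of −0.51 ± 0.20 (limma adjusted p = 0.0387) was lost in 11 of 25 alternatives, including without GSC[neonatal] (−0.57, adjusted p = 0.0833), GSC[adult] (−0.44, 0.241), ESC (−0.49, 0.0537), iPSC[MEF] (−0.47, 0.057), iPSC[GSCadult]#1 (−0.49, 0.0599) or iPSC[GSCadult]#2 (−0.51, 0.0526).

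Pcgf1 was 7.70 to 8.80 in pluripotent lines (median 8.41), 8.61 and 8.73 in GSC and 7.14 in MEF. GSC lay within the pluripotent range (0.36 ± 0.20, limma adjusted p = 0.141), and without gPSC[GSCneonatal]#1 the difference passed (0.42, adjusted p = 0.0281). MEF lay below it by −1.16 ± 0.27 (limma adjusted p = 0.00131), and this did not pass with arrays scaled to a common median (−0.34, adjusted p = 0.315). Kdm2b, which encodes the CpG-binding partner of PCGF1, was detected on 0 of 20 pluripotent arrays and on 4 of 4 GSC arrays. Neither MEF array detected it, so it passed the detection filter through the GSC arrays alone. Its call as higher in GSC is therefore not separate support for a difference. Its levels were 4.34 to 4.56 in pluripotent lines, 4.92 and 5.26 in GSC and 4.56 in MEF, so that both GSC lines were above all others. GSC were at least 1.09-fold higher than pluripotent lines (limma adjusted p = 0.00494), and the call was lost without GSC[adult] (0.46, adjusted p = 0.166).

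The Polyhomeotic genes encode the subunits through which canonical PRC1 clusters, and Phc1 and Phc2 went in opposite directions. The Phc1 window is shown for contrast with the CpG-rich windows of Ezh2, Cbx7 and Cbx8. It lies at chr6:122340178-122340477 (minus strand), holds 9 CpG, and has no match to the 4 motifs searched, so it carries no capitals.
Phc1: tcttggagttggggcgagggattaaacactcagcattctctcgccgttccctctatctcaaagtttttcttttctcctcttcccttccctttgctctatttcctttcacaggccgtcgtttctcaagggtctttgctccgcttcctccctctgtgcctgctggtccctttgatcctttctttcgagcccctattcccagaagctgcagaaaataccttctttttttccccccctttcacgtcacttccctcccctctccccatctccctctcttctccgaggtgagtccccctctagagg

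Phc1 ranged from 10.84 to 11.88 in pluripotent lines (median 11.56), and was 10.07 and 10.17 in GSC and 8.12 in MEF. The classes were separate, with MEF lowest. Phc1 was lower by −1.40 ± 0.18 in GSC (limma adjusted p = 9.93e-07) and by −3.40 ± 0.25 in MEF (limma adjusted p = 1.87e-10). Its other detected probes gave −0.99 and −2.17 in GSC and −1.08 and −3.69 in MEF. Phc2 ranged from 7.53 to 8.45 in pluripotent lines (median 8.0), and was 9.48 and 9.59 in GSC and 10.17 in MEF. Here the order was the reverse, again with no overlap. Phc2 was higher by 1.58 ± 0.22 in GSC and 2.21 ± 0.30 in MEF (limma adjusted p = 2.24e-06 and 2.11e-06). Scmh1, a relative of the fly Polycomb gene Sex comb on midleg, was 6.03 to 6.78 in pluripotent lines (median 6.27), 7.14 and 6.93 in GSC and 7.01 in MEF.

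The Scmh1 difference of 0.74 ± 0.24 in GSC passed (limma adjusted p = 0.0119), but not without GSC[neonatal] (0.64, adjusted p = 0.141) or GSC[adult] (0.85, 0.0514). The MEF difference of 0.72 ± 0.32 did not pass (limma adjusted p = 0.0771), and did so without gPSC[GSCadult]#2 (0.77, adjusted p = 0.0255). That line had the highest Scmh1 and Phc2 of the pluripotent lines and the highest fibroblast-marker sum. The part of that marker signal in these differences was not tested.

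Among the enzymes that remove Polycomb marks, Bap1 and Kdm6a were called in both comparisons. BAP1 takes ubiquitin off histone H2A. Bap1 was 8.28 to 8.74 in pluripotent lines (median 8.60), 9.44 and 9.36 in GSC and 7.87 in MEF, with GSC above and MEF below every pluripotent line. It was higher by 0.86 ± 0.16 in GSC (limma adjusted p = 0.000101) and lower in MEF by −0.67 ± 0.22 (limma adjusted p = 0.0158). With arrays scaled to a common median the MEF difference turned to 0.26 (adjusted p = 0.39), so its direction is uncertain.

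Kdm6a, an X-linked gene, encodes UTX, a demethylase of the PRC2 mark. It was 9.13 to 9.59 in pluripotent lines (median 9.26), 7.81 and 7.45 in GSC and 7.31 in MEF, and the pluripotent lines were all above the others. The differences were −1.68 ± 0.15 and −1.99 ± 0.21 (limma adjusted p = 3.65e-09 and 5.99e-08), and another detected probe gave −1.75 and −1.59. Kdm6b, its paralogue JMJD3, was 7.57 to 8.93 (median 8.31), 8.25 and 8.72, and 8.25. All classes overlapped, with differences of 0.10 ± 0.29 in GSC and −0.13 ± 0.40 in MEF (limma adjusted p = 0.808 and 0.827). Another detected Kdm6b probe gave 0.40 and 0.12. With arrays scaled to a common median Kdm6b was 0.83 higher in MEF (adjusted p = 0.0377).

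Several called members had more than 1 probe. In GSC, 7 of 7 other detected probes of called members had the sign of the probe used, and in MEF 4 of 4. Members that were not called are outside these counts, and among them Aebp2, Rbbp7 and Kdm6b had a detected probe of the opposite sign in MEF. The GSC lines were close to each other, with 23 of 29 members within 0.25 on the log2 scale and the widest gap at Rbbp7 (0.70). The median absolute difference between the arrays of a line was 0.10, and the largest was 0.78 for Jarid2 in ESC.

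Subunit exchange was read from the log2 ratio of paralogous members within each line, relative to its mean in pluripotent lines. The size of a ratio is not read, since probes differ, and the ratios are a description with no test. Of 14 listed pairs 10 could be measured, and both GSC lines lay outside the pluripotent range for 8 of them. The share among pairs of other genes was not computed, so these counts are not read as particular to Polycomb genes. Of single genes, 52.5% lay outside the range in GSC and 65.2% in MEF. In MEF both genes were detected for 6 pairs, of which 5 lay outside the range, and the pairs Ezh2/Ezh1, Cbx7/Cbx8, Cbx2/Cbx8 and Pcgf2/Bmi1 held a gene at background there, so that no MEF ratio is given. Cbx7/Cbx8 was between −0.88 and 0.50 in pluripotent lines, most of which had Cbx8 at background, and −5.40 and −5.44 in the GSC lines. Phc1/Phc2 was −2.98 and −2.97 in GSC and −5.61 in MEF, against −0.96 to 0.77 in pluripotent lines. Ezh2/Ezh1 was −2.58 and −2.70 in GSC, against −0.55 to 0.27.

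Within the PCGF family, Pcgf2/Bmi1 was −1.83 and −2.13 in GSC, against −0.49 to 0.60 in pluripotent lines. Pcgf6/Pcgf1 was −1.27 and −1.40 in GSC and −1.28 in MEF, against −0.86 to 0.80, so that GSC and MEF lay on the same side. Pcgf3/Pcgf5 was −2.53 and −2.71 in GSC and 1.77 in MEF, against −1.46 to 1.35, so that GSC and MEF lay on opposite sides. Kdm6a/Kdm6b was −1.36 and −2.19 in GSC and −1.87 in MEF, and Mtf2/Phf19 was −0.97 and −0.86 in GSC and −3.33 in MEF, below the pluripotent range in each case. Rnf2/Ring1 stayed within the pluripotent range in GSC and MEF, and Cbx2/Cbx8 overlapped it in GSC.

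**Figure D4:**
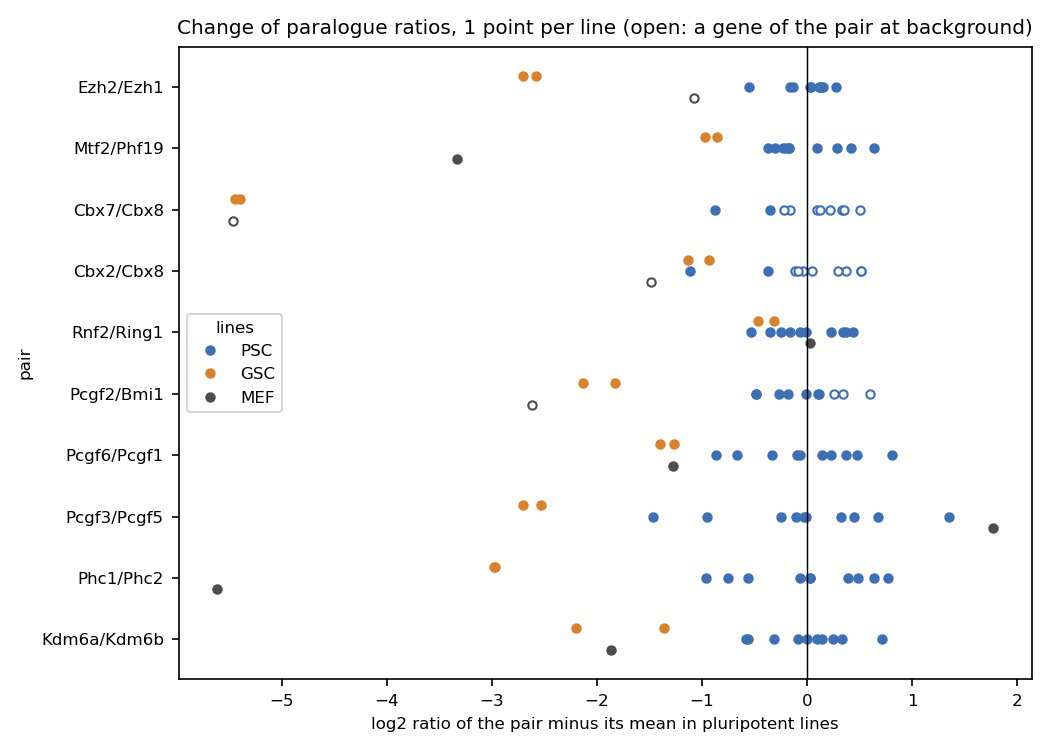
Log2 ratio of 10 paralogue pairs in each line minus the mean of the 10 pluripotent lines (horizontal axis), with 1 point per line in blue (pluripotent, PSC), orange (GSC) and grey (MEF), open where a gene of the pair was detected on neither array of the line. For 8 pairs both GSC points lie outside the blue points, farthest for Cbx7/Cbx8, and Pcgf3/Pcgf5 is the pair where MEF (1.77) and GSC lie on opposite sides.

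Among the pluripotent clones the route of reprogramming made no called difference. Between 4 iPSC[GSC] and 4 gPSC clones limma called 0 of 29 members and 0% of all genes, with 1 member and 491 genes at an unadjusted p under 0.05. The 8 arrays of iPSC[GSC] shared a background pattern in dim probes, while the gPSC arrays were split 4 and 4 between that pattern and another, so the groups are not balanced over it. On the arrays of the shared pattern alone limma again called 0 members. The member at an unadjusted p under 0.05 was Phf19, from 5.42 to 6.52 in iPSC[GSC] and 5.03 to 5.61 in gPSC, ranges that overlap, with a difference of 0.71 ± 0.20 (limma adjusted p = 0.742). The largest difference was 0.79 ± 0.53 for Pcgf5 (limma adjusted p = 0.742), which is well within the spread of its clones. The median over the members was 0.11, against 0.01 for all genes.

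Between 4 clones of adult and 4 of neonatal origin limma again called 0 of 29 members and 0% of all genes, with 2 members and 440 genes at an unadjusted p under 0.05. These were Rnf2 (−0.38 ± 0.12) and Phf19 (−0.49 ± 0.20), both at a limma adjusted p of 0.751. Pcgf5 gave the largest difference, −0.93 ± 0.53 (limma adjusted p = 0.751). The median over the members was −0.08, against 0.00 for all genes. A p that misses the threshold with 4 clones a side does not show that the clones are alike.

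Single clones differed by more than the groups did for members such as Pcgf5. Within the pluripotent lines iPSC[GSCneonatal]#1 was highest for 11 of 29 members and gPSC[GSCadult]#2 lowest for 11. The first of these lines led for Mtf2 (10.17), Suz12 (12.34), Phf19 (6.52), Aebp2 (7.71), Cbx8 (5.68) and Pcgf5 (10.97), and was lowest for Phc1 (10.84), Pcgf6 (9.18) and L3mbtl2 (7.48). The second was lowest for Ezh2 (9.81), Suz12 (11.32), Mtf2 (9.11), Pcgf5 (7.81) and Kdm6b (7.57). Its fibroblast-marker sum was the highest of the pluripotent lines, and that of iPSC[GSCneonatal]#1 the lowest. The part of fibroblast RNA in these extremes was not tested. ESC was highest for 3 members and lowest for 5, and iPSC[MEF] was highest for 1 and lowest for 1.

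Other genes that work with the Polycomb complexes also differed in both directions. Of 38 listed, 27 were measured, and in GSC 10 were higher and 6 lower than in pluripotent lines, or 59.3%, near the 51.3% of all genes. The 10 higher include Lcor and Skida1, which passed the detection filter through the GSC arrays alone. They also include Bcorl1, which was detected on 1 pluripotent array and 0 MEF arrays and would not have passed without GSC. Sfmbt1 was 2.85 ± 0.19 higher, and E2f6, a repressor of the PCGF6 complex, was 1.59 ± 0.17 higher (limma adjusted p = 1.61e-11 and 3.75e-08). Ezhip, a PRC2 inhibitor of germ cells, was 1.95 ± 0.40 higher, and Epop, a PRC2 cofactor of pluripotent cells, was lower by −1.86 ± 0.20 (limma adjusted p = 0.000253 and 4.41e-08). In MEF 2 were higher and 8 lower, or 37%, against 43.5% of all genes. The largest differences among genes detected on both sides were Epop (−3.40 ± 0.27), Wdr5 (−2.29 ± 0.25), the ubiquitin protease gene Usp7 (−1.89 ± 0.21) and L3mbtl3 (1.41 ± 0.25), and Ezhip, at background in MEF, was at least 1.97-fold lower. Between GSC and MEF 12 were higher and 1, L3mbtl3, at least 3.78-fold lower in GSC, or 48.1%, against 46% of all genes. The medians of the list were 0.27, −0.34 and 0.69, against 0.00, −0.10 and 0.09 for all genes, and 0.22, −0.03 and 0.48 with genes at background set at their bound.

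The trithorax and COMPASS list holds mainly genes of the complexes that place the activating methyl mark that opposes Polycomb. Of 20 listed, 10 were measured. Among these are Kdm5b and Kdm5c, which encode demethylases that remove that mark, and Kdm5b was among those lower in GSC and in MEF. In GSC 5 were higher and 2 lower, or 70% against 51.3% of all genes, with the CpG-binding subunit gene Cxxc1 at 2.25 ± 0.21, Men1 at 1.33 ± 0.16, the methyltransferase gene Setd1a at 1.32 ± 0.15 and the core subunit gene Dpy30 at −1.03 ± 0.17. In MEF 0 were higher and 6 lower, or 60% against 43.5% of all genes. Dpy30 was at −1.81 ± 0.22, Kmt2b at −1.53 ± 0.28, Ash2l at −1.35 ± 0.22 and the demethylase gene Kdm5b at −1.23 ± 0.38. GSC exceeded MEF for 6 and were lower for 0, or 60% against 46% of all genes. The medians of these 10 genes were 0.43, −1.05 and 0.88, against 0.00, −0.10 and 0.09 for all genes. All the values named passed at a limma adjusted p under 0.05.

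Genes known as Polycomb targets, mostly Hox and lineage factors, were measured for 33 of 69. A target that passed the detection filter had to be detected somewhere, so the counts describe these 33 genes and not the list. Isl1 and Foxa2 passed it through GSC arrays alone and Hoxa11 through MEF arrays alone, and each was called higher there. Hoxd10, detected on 1 pluripotent array and 0 GSC arrays, would not have passed without MEF, where it was called higher. Isl1 is also counted as higher in MEF below, though it was detected on 0 MEF and 0 pluripotent arrays. No fold above 1 is supported for Isl1 there. In MEF 25 were higher than in pluripotent lines and 0 lower, or 75.8% against 43.5% of all genes. The median was 2.07 (1.89 with genes at background set at their bound) against −0.10 for all genes. Foxc2 differed by 4.58 ± 0.29, Hoxc6 by 4.32 ± 0.51, the ligand gene Wnt5a by 4.01 ± 0.47 and Hoxc9 by 3.72 ± 0.29. In GSC 12 were higher and 5 lower, or 51.5%, near the 51.3% of all genes, with a median of −0.04 against 0.00. Hoxb7 was 8.85 and 8.74 in GSC against a pluripotent mean of 4.65 ± 0.43 (SD, n = 10), a difference of 4.14 ± 0.24 (limma adjusted p = 9.32e-13), and Foxc2 and Hoxb2 were 2.81 ± 0.22 and 2.61 ± 0.30 higher. Gata6, an endoderm factor, was at least 3.2-fold lower in GSC (limma adjusted p = 4.25e-05).

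Cdkn2a, the cell-cycle inhibitor locus that BMI1 is known to silence, was chosen after its values were seen. It stood at 9.06 and 8.91 in GSC and 8.60 in MEF, against a pluripotent mean of 6.86 ± 0.65 (SD, n = 10). Like Bmi1 it was higher in both, by 2.13 ± 0.28 and 1.74 ± 0.38 (limma adjusted p = 1.16e-06 and 0.000711). Between GSC and MEF 1 target was higher and 18 lower in GSC, or 57.6% against 46% of all genes. The widest were Hoxc6 (−4.55 ± 0.59), Wnt5a (at least 15.4-fold lower), Meis2 (−3.62 ± 0.52) and Meis1 (−3.20 ± 0.40). Limma called 0 of the 33 targets in either comparison of clones.

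**Figure D5:**
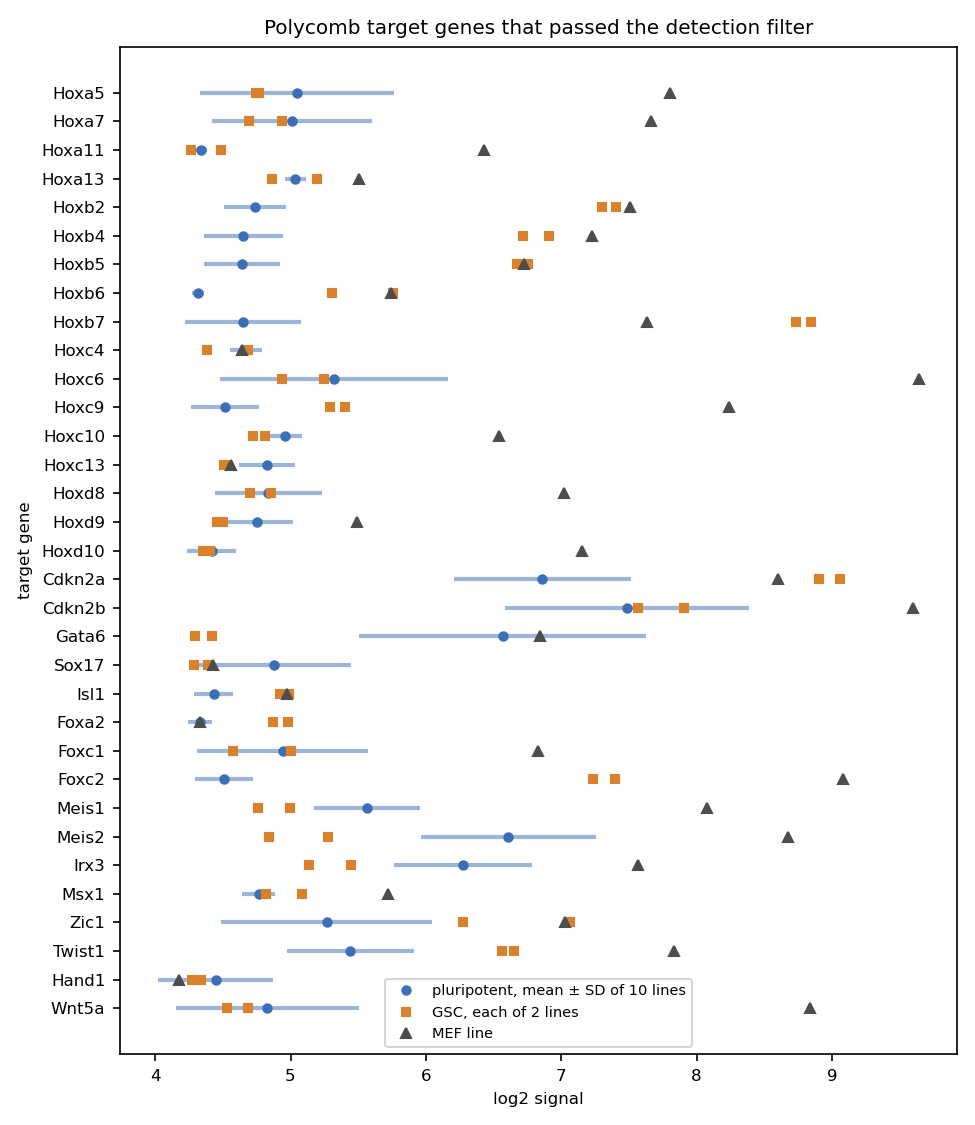
Normalised log2 signal (horizontal axis) of the 33 measured Polycomb target genes, with a blue point and bar for the mean and SD of the 10 pluripotent lines, orange squares for the 2 GSC lines and a dark triangle for MEF. MEF lies to the right for most targets, and the GSC squares lie near MEF for Hoxb2, Hoxb4 and Hoxb5 and near the pluripotent lines for Hoxc6 and Wnt5a.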

How the data were processed

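Illumina bead arrays were read for 13 mouse cell lines, 2 arrays per line. The table of 25697 probes holds each array's signal intensity as deposited, exported from BeadStudio 3.2 per the submitters' processing notes, which also name RMA and lumi without version or role. Per the file headers it holds a detection p-value for each probe and array. The authors' normalised matrix, deposited beside it and read as log2 from its range, was used as an alternative. Its log base and steps are not given in the sources used here.

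Gene names came from a mouse gene table (GRCm38.p6), matched by deposited Entrez identifier for 23962 probes, by accession for 9 and by the file's symbol for 7, and 1719 probes stayed unnamed. The neqc function of limma 3.58.1 (statmod 1.5.0, R 4.3.3) corrected the intensities for background, with an offset of 16, and gave quantile-normalised log2 values. A probe was kept if its detection p was below 0.01 on 2 or more arrays (14517 probes), and the kept probe with the highest mean stood for a gene. Depth is given by the brightness of probes over background: the upper twentieth of them stood at 8.67 to 24.9 times background, most in MEF.

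The main limma model had 26 arrays in 9 cell types, with line as a random block (consensus correlation 0.812), and clones were compared on 8 clone means. Calls are Benjamini-Hochberg adjusted p under 0.05 over all 9840 genes. On simulated data the array model called unchanged genes more often than its threshold allows and the fit to line means did not, so both counts are printed. A gene undetected on every array of a side has a lower bound for its fold. Every listed member is accounted for, and up to 4 called genes with the largest difference are named from each other list. The members and lists were chosen with earlier results of these data known. The alternatives were other normalisations, other filters, probe averages, leaving out arrays or lines, the replicate number as a block, other reference lines and groups of arrays with a shared background.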

Additional observations from a re-analysis of the deposited data

Results flagged for a closer look

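Of 87 groups of lines tested for a line far from the others, 9 held one, and chance gives about 1 in 20. Among the 4 iPSC[GSC] clones, iPSC[GSCneonatal]#1 was far above the rest for Aebp2 (7.71, nearest clone 6.89) and Yaf2 (5.55, nearest 4.74), and below for Bap1 (8.35, nearest 8.64). In the same group iPSC[GSCadult]#1 was high for Ring1 (6.96, nearest 6.71) and low for Pcgf1 (8.26, nearest 8.57), and iPSC[GSCneonatal]#2 was low for Bmi1 (4.61, nearest 5.32), where neither array detected it. Among the 4 gPSC clones, gPSC[GSCneonatal]#1 was high for Mtf2 (10.10, nearest 9.21). Among all 10 pluripotent lines iPSC[GSCneonatal]#1 was low for Pcgf6 (9.18, nearest 9.60) and gPSC[GSCadult]#2 low for Kdm6b (7.57, nearest 8.28). The second of these lines also had the highest fibroblast-marker sum (9398). Its part in the Kdm6b level was not tested.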

How the results depend on the processing

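Every count of called members stayed within 1.5 times its value under the alternatives run. Leaving out a replicate or a line gave 15 to 21 members between GSC and pluripotent lines, 13 to 19 between MEF and pluripotent lines, 11 to 14 between GSC and MEF, and 0 to 0 in both clone comparisons. Between GSC and pluripotent lines the lowest count was without GSC[neonatal]. With the replicate number as a block 20, 16 and 13 members were called and 0 in both clone comparisons, where 7 and 9 genes passed over all genes. Over 78 pairs of lines the correlation of their array differences ran from −0.19 to 0.41 (median 0.01) and was over 0.1 for 28, so the numbers do not pair all samples. In 8 lines replicate 1 was one of the 8 arrays that share a background in dim probes, and 27 of the 28 pairs among these lines were over 0.1 (0.08 to 0.41), against 1 of the other 50. Called members that passed under every alternative were 14 of 20, 10 of 17 and 10 of 14. Differences that turned sign and were called in at least one of the settings compared were Aebp2 with its kept probes averaged (−0.94 in GSC, limma adjusted p = 0.0018, and −1.02 in MEF, 0.0118) and, with arrays scaled to a common median, Bap1 (0.26, MEF against pluripotent lines), Kdm6b (0.83, MEF against pluripotent lines) and Rbbp7 (−0.96, GSC against MEF, limma adjusted p = 0.0202). Sign changes among differences called in neither setting are not listed, apart from Rbbp7 between MEF and pluripotent lines (0.54 with a common median). The first rests on probes that disagree. Kdm6b and Rbbp7 also had a detected probe of the opposite sign between MEF and pluripotent lines. For these and Bap1 the cause was not tested. A batch named in the headers could not be used, since none is given. Dim probes put the arrays in groups of 8 (all replicate 1), 16 and 2, the last being MEF, whose background and cell type cannot be told apart. Alternatives on these groups, chosen after seeing the data, called 19 members on the 16 arrays alone and 20 with the group as a block between GSC and pluripotent lines. Without background correction 3 of 20, 6 of 17 and 6 of 14 called differences moved by over 1.5 times, in the deposited matrix 4 in each comparison, and with a common median 0, 13 and 7. Members near background, such as Kdm2b, Jarid2 and Cbx8, have compressed differences.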
